A study of Mus musculus with 4 samples.

Results

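The genes described here are 39 glycolysis and hypoxia response genes, measured by RNA-seq in the cerebral cortex of mouse embryos. They were taken by symbol: glycolytic enzymes, the neuronal glucose transporter, lactate export, the HIF oxygen-sensing machinery and hypoxia-inducible genes. The 39 symbols matched 40 of the 20385 gene rows that both of the deposited tables list. The extra row is a second, barely counted Aldoa locus (ENSMUSG00000114515, with 4 counts in each WT library, 12 in KO 5 and 5 in KO 6), which was set apart. The tissue was E16 cortex of C57BL/6 embryos, either wild type (WT, libraries WT 1 and WT 4) or carrying a knockout of Cd93 (KO, libraries KO 5 and KO 6), with no other allele or treatment named. Cd93 encodes a transmembrane receptor best known from endothelial and myeloid cells. Which part of Cd93 was deleted is not given in the sources used here, nor whether each library came from its own embryo. The design text speaks of triplicates, and 2 libraries per genotype were analysed. All p-values therefore measure the spread between these libraries, which may be technical.

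Glycolysis splits glucose into pyruvate in the cytosol and yields ATP without oxygen. Lactate dehydrogenase then turns pyruvate into lactate to regenerate NAD+, while pyruvate dehydrogenase, held in check by the Pdk kinases, feeds it to the mitochondria. When oxygen is plentiful, prolyl hydroxylases of the Egln family mark HIF-1α for destruction through Vhl. When oxygen falls, HIF-1α pairs with Arnt, binds DNA at the core sequence RCGTG (R is A or G) and raises transcription of many glycolytic genes and of its own hydroxylase Egln3. Neural progenitors of the embryonic cortex are known to rely strongly on glycolysis, and differentiating neurons shift toward oxidative metabolism.

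The member promoters carried this core sequence often. RefSeq promoter windows on GRCm38.p6, covering 250 bases before to 50 bases after an annotated start, were found for 37 of the 39 symbols (Ero1l under its current symbol Ero1a), with 54 windows in all. The word ACGTG, searched on both strands, was present for 24 of the 37 genes, or 64.9%, against 21.8% of all 27025 genes with a window. With GCGTG added, 33 of the 37 genes held a match, or 89.2%, against 46.7% of all genes. On both strands ACGTG also matches part of the palindrome CACGTG, the E-box read by other bHLH proteins. A match is a description of these letters, not of occupancy. The members were chosen as glycolytic and hypoxia-inducible genes, so a high share of the HIF core was partly built into the list. More windows per gene also raise a share by gene, with 54 windows for 37 members and 32851 for all 27025 genes. By window, ACGTG was present in 51.9% for the members and 19.6% for all genes, and base composition was not matched. Stretches of 30 bases are shown for 6 genes that represent the steps described here: a hexokinase, a lower glycolytic enzyme, lactate dehydrogenase, the phosphofructokinase-2 enzyme Pfkfb3, a mitophagy receptor and a HIF hydroxylase. Each is written 5′ to 3′ on the strand of its gene, with the ACGTG core or its reverse complement CACGT in capitals.
Hk2 (chr6:82774489-82774518, minus strand): aatgagcacatcCACGTcactgtccggggc
Pgk1 (chrX:106186938-106186967, plus strand): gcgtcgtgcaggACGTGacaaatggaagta
Ldha (chr7:46845745-46845774, plus strand): ggcccagcctacACGTGggttcccgcacgt
Pfkfb3 (chr2:11502125-11502154, minus strand): acccttctctccACGTGaaagggggctggg
Bnip3 (chr7:138909596-138909625, minus strand): cgcacgcgccgcACGTGccacacgctcccc
Egln3 (chr12:54204086-54204115, minus strand): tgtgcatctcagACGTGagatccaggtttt
In 5 of these 6 the capitals lay within about 150 bases of the start, and in Egln3 they began 229 bases before it. In Ldha, Pfkfb3 and Bnip3 the capitals follow a c, so these stretches hold the full E-box palindrome CACGTG.

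The libraries held 16318317 to 17586157 counts, so that 1 count was worth 0.0569 to 0.0613 CPM (counts scaled to the library total) before the TMM scaling applied to all CPM values printed here. Cd93 stood at 38.3 and 24.0 CPM in WT 1 and WT 4 and at 6.34 and 6.10 CPM in KO 5 and KO 6. Its log2 fold change was -2.32 (SE 0.25, n = 2 per genotype), so the labels matched the direction of the targeted gene. Its adjusted p was 0.211 in edgeR's quasi-likelihood test, adjusted by the Benjamini-Hochberg method. WT 1 stood apart from the other 3 libraries in markers of several cell types. All 10 endothelial, all 8 meninges and fibroblast and all 9 ganglionic eminence markers were highest in WT 1. Their summed levels were 258, 460 and 574 CPM there, against 145 to 149, 39.1 to 78.3 and 157 to 256 CPM in the other libraries. The fibroblast sum was 78.3 CPM in WT 4 and 39.1 and 53.3 CPM in KO 5 and KO 6. The ganglionic eminence sum was 256 CPM in WT 4 and 157 and 249 CPM in KO 5 and KO 6. Both KO libraries were below both WT libraries for 7 of 9 ganglionic eminence markers, against 11.9% of all genes. The same held for 5 of 7 tested fibroblast markers and 1 of 10 endothelial markers. The cortical neuron markers, which define the labelled tissue, summed to 7409 CPM in WT 1 and to 8211 to 8416 CPM in the others, with none at 0. Their part in the results on single members was not tested. In bulk tissue, fewer cells of a type and less RNA per cell cannot be told apart.

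Across the whole pathway no difference in transcript levels between knockout and wild-type cortex was detected. None of the 38 tested members passed the threshold of an adjusted p under 0.05 in edgeR's quasi-likelihood test, adjusted by Benjamini-Hochberg over 16371 genes, where 2 genes did, or 0.0122%. At an unadjusted p under 0.05, which 1.94% of all genes reached, the count among the members was also 0. At an adjusted p under 0.05 it was 0 as well with limma-voom, without a filter on low counts (0.00981% of all genes called), with DESeq2 (0.0489%) and with the deposited table as a block (0.177%). It was likewise 0 without KO 5 (0.0291% of all genes), without KO 6 (0.0466%), without WT 1 (0.259%) and without WT 4 (1.82%). Fitted log2 changes ran from -0.31 for Adm, a vasodilator peptide, to 0.30 for Gapdh, with 23 members higher and 15 lower in KO and a median of 0.03 against -0.003 over all genes. The 95% interval of the change lay within 1.5-fold in either direction for 31 of the 38 members and within 2-fold for 37, the exception being Adm. Over all genes tested, 54.1% and 74.0% of intervals were that narrow. On simulated counts of the same depth, with 200 of 16371 genes changed, the test called 0 of 200 changed 1.5-fold, 113 of 200 changed 2-fold and 193 of 200 changed 4-fold. In all, the 2-fold run called 128 genes and the 4-fold run 214. In this simulation a change of 1.5-fold was thus not called at this replication. Its noise was drawn independently for each gene and library, without differences by deposited table. The changed genes were drawn only from those above a set mean level, so the rates do not cover Adm, which lies below it.

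**Figure D1:**
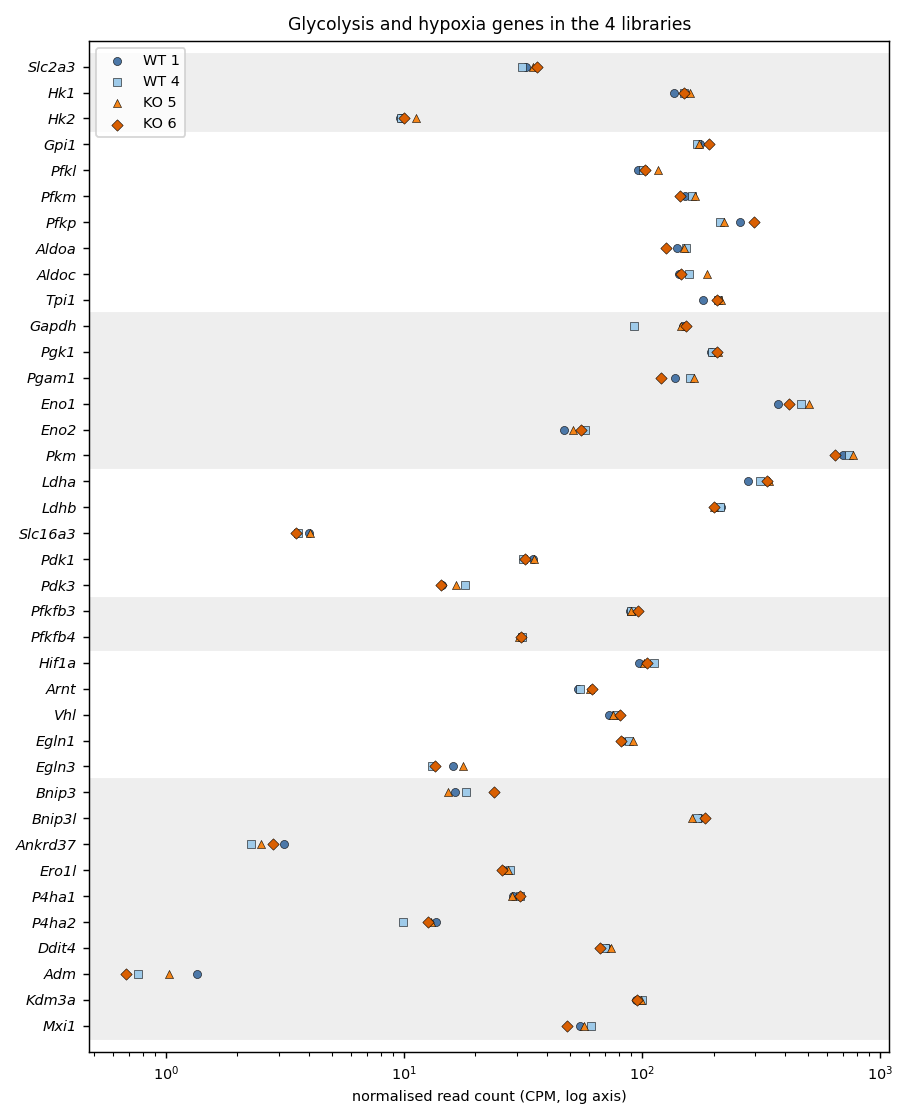
Normalised read counts (CPM, log axis) of the 38 tested members in WT 1, WT 4, KO 5 and KO 6, 1 point per library, with grey and white bands for the role groups from glucose entry (top) to hypoxia-inducible effectors (bottom). The members spanned from about 1 CPM (Adm) to 771 CPM (Pkm in KO 5), and the 4 points of most genes lie close together on this scale.

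Levels between genes were compared per kilobase of annotated exon. On this scale Pkm, the pyruvate kinase gene, had the highest mean over the 4 libraries at 143 CPM per kb, followed by Ldhb at 132, Ldha at 96.2, Pgk1 at 90.1 and Eno1 at 81.7. The exon length joins the exons of all transcripts of a gene, so this order depends on the annotation. For Ldhb, Ldha and Eno1 it was 1570, 3310 and 5379 bases. Their longest coding transcripts have 1304, 1815 and 2027 bases, so the order of these genes is uncertain. Eno2, the neuronal enolase, was at 11.3 CPM per kb, well below Eno1. At the low end, the lactate exporter Slc16a3 had 0.71 and Adm 0.59 CPM per kb. Car9, a carbonic anhydrase that is among the most hypoxia-specific genes known, had only 4 counts in WT 1 and 1 count in each of the other libraries. It was not tested, and 3 of its 4 values were below the floor of 3 counts.

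Genes for glucose uptake and the first phosphorylation were slightly higher in the KO pair of libraries than in the WT pair, without overlap, for 3 of 3 members, where 11.5% of all genes had this order. None of the 3 passed the test. Slc2a3, the main glucose transporter of neurons, was at 32.5 and 31.3 CPM in WT 1 and WT 4 and at 34.9 and 36.2 CPM in KO 5 and KO 6. The KO libraries were the higher pair, with a log2 fold change of 0.16 (SE 0.11). Hk1, the hexokinase that neurons use constitutively, was at 137 and 150 CPM in WT 1 and WT 4 and at 159 and 151 CPM in KO 5 and KO 6. The gap between WT 4 and KO 6 was under 1 CPM, and the log2 fold change was 0.11 (SE 0.11). Hk2, the inducible hexokinase, was at 9.68 and 9.69 CPM in WT and at 11.2 and 10.0 CPM in KO 5 and KO 6, with a log2 fold change of 0.14 (SE 0.19). Every one of these intervals included no change.

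In upper glycolysis, from glucose-6-phosphate to the triose phosphates, 5 of 7 members were higher and 2 lower in KO, none past the test. Pfkl, a phosphofructokinase subunit at the committed step, was at 96.3 and 101 CPM in WT 1 and WT 4 and at 117 and 103 CPM in KO 5 and KO 6. The pairs did not overlap, with WT 4 and KO 6 near each other, and the log2 fold change was 0.15 (SE 0.11). Pfkp, the platelet-type subunit and the member of this group with the highest mean CPM, was at 258 and 213 CPM in WT 1 and WT 4 and at 220 and 295 CPM in KO 5 and KO 6. Here the libraries sorted by deposited table and not by genotype: WT 1 and KO 6, which the authors compared in 1 table, were both above WT 4 and KO 5. Aldoc, the aldolase of astrocyte and progenitor lineages, was high in KO 5 alone, at 189 CPM against 144 to 157 CPM in the other libraries. Gpi1, Pfkm, Aldoa and Tpi1 had log2 fold changes between -0.09 and 0.12, and each overlapped between genotypes.

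In lower glycolysis, where ATP is made, 4 of 6 members were higher and 2 lower. Pgk1, which forms the first ATP of the pathway, was nearly identical within genotypes, at 195 and 196 CPM in WT and 210 and 208 CPM in KO 5 and KO 6. The KO pair was higher by 0.09 on the log2 scale (SE 0.10). Pkm, the most abundant member, was at 703 and 743 CPM in WT 1 and WT 4 and at 771 and 649 CPM in KO 5 and KO 6. The KO libraries bracketed the WT libraries, and the log2 fold change was -0.03 (SE 0.13). Eno1 was at 374 and 465 CPM in WT 1 and WT 4 and at 502 and 417 CPM in KO 5 and KO 6, so WT 4 was above KO 6. Pgam1, the mutase, and Eno2 stood at -0.05 (SE 0.17) and 0.03 (SE 0.13) as log2 fold changes.

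Gapdh, the triose oxidation enzyme and a common reference gene, had the highest log2 fold change of all members, 0.30 (SE 0.21), and this value rested on WT 4. The gene lies at chr6:125161715-125166467 (GRCm38, minus strand, protein coding). Its levels were 149 and 92.9 CPM in WT 1 and WT 4 and 146 and 153 CPM in KO 5 and KO 6. WT 4 was low and the other 3 libraries were alike. Leaving out WT 4 brought the log2 fold change to 0.01, and leaving out WT 1 brought it to 0.68. In the same library the processed pseudogene Gm13394 (chr2:28933610-28934609, minus strand) had 5067 counts, against 101 in WT 1, 83 in KO 5 and 97 in KO 6. Gapdh itself had 1582 counts in WT 4 and 2480 to 2645 in the others.

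Gm13394 is close to a full copy of the Gapdh coding region. Over its 1000 bases it differs from the 1272-base GENCODE transcript of Gapdh at 1 base, A438C, counted from the first base of that transcript. Another pseudogene, Gm5559 (chr5:95861714-95862715, plus strand), differs at 1 of 1002 bases, T477A. The pseudogene Gm7336 (chr7:51746647-51747878, plus strand) has 0 mismatches and 1 gap over 1198 aligned bases of its 1232. For Gm13394 and Gm5559 the 60-base stretches around the distinguishing bases are shown because, within the aligned bases, gene and copy differ only there. The differing base is in capitals, and sequences are from GENCODE mouse release M21 transcripts.
Gapdh, bases 409 to 468: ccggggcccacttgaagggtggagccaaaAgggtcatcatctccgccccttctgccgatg
Gm13394, same stretch: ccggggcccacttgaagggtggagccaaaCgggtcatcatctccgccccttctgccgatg
Gapdh, bases 448 to 507: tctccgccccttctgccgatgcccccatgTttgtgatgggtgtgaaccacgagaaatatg
Gm5559, same stretch: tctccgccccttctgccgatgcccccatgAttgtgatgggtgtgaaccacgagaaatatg
Of the 25-base words of its longest transcript, Gapdh shared 84.9% with other annotated genes, and 32 genes had at least 50% of their own words in it. Gm5559 was even over the libraries, with 1229 to 1386 counts, while Gm7336 had 2689 counts in KO 5 and 1480 to 1808 in the others. Summed with all 32 copies, the counts were 6198 (WT 1), 9609 (WT 4), 6812 (KO 5) and 5629 (KO 6). The sum turned the direction of the change, to a log2 fold change of -0.31. The Gapdh value is therefore reported as uncertain in both size and direction.

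**Figure D2:**
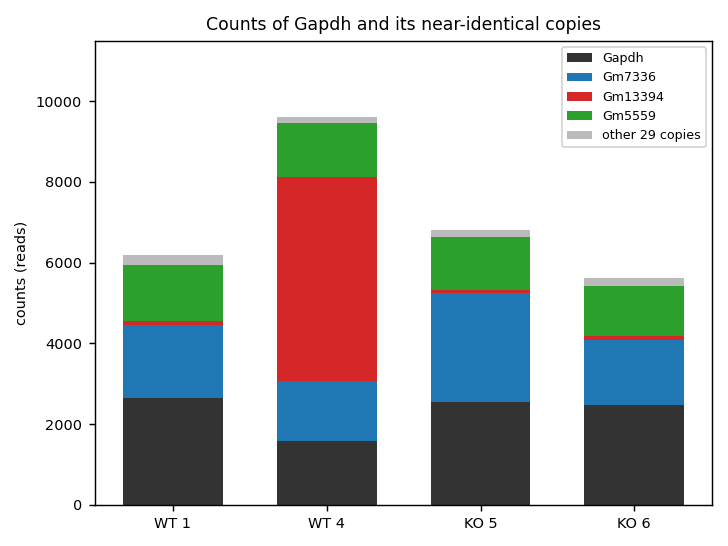
Stacked deposited counts (reads, axis from 0) of Gapdh and of its near-identical copies in each library. Gm13394 makes up 5067 counts of the WT 4 bar and 83 to 101 counts of each other bar, while the Gapdh segment is smallest in WT 4 at 1582 counts.

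Other members also shared long stretches with pseudogenes or paralogs: 78.8% of the 25-base words for Eno1, 78.7% for Bnip3, 68.4% for Pgk1 and 56.9% for Pkm. Ldhb shared 47.2%, Aldoa 43.9%, Gpi1 42.8%, Pgam1 42.3% and Ldha 39.4%. How the counting treated reads with several matches is not given in the sources used here, so levels of these genes are uncertain. Adding the counts of near-identical copies changed the sign of Gapdh among the members and of no other.

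The lactate step showed the largest mean shift among the isoenzyme balances computed. Ldha (chr7:46841475-46855627, plus strand), the subunit whose tetramer favours lactate formation, was at 280 and 314 CPM in WT 1 and WT 4 and at 343 and 337 CPM in KO 5 and KO 6. Both KO libraries were above both WT libraries, and the log2 fold change of 0.19 (SE 0.11, 95% interval -0.075 to 0.46) had the smallest p of all members, 0.131 unadjusted in edgeR's quasi-likelihood test. Its adjusted p was 0.9999 by the Benjamini-Hochberg method, as for every tested member, and it ranked 1043 among 16371 genes. Ldhb, the subunit of oxidative tissues, was at 214 and 212 CPM in WT 1 and WT 4 and at 200.5 and 200.4 CPM in KO 5 and KO 6, the reverse order, with a log2 fold change of -0.09 (SE 0.10).

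The share of Ldha in the counts of both lactate dehydrogenase genes came to 56.7% (WT 1), 59.7% (WT 4), 63.1% (KO 5) and 62.7% (KO 6). Its 95% Wilson intervals, which cover counting error only, were 55.7% to 57.7%, 58.6% to 60.7%, 62.1% to 64.0% and 61.7% to 63.7%. The mean share was 4.72 percentage points higher in KO, 58.2% ± 2.1 (SD, n = 2) in WT and 62.9% ± 0.26 in KO. With 2 libraries against 2, an exact two-sided permutation test cannot give a p below 0.333, and no other test of this share was run. WT 1, which had the high endothelial, fibroblast and ganglionic eminence markers and the lowest sum of cortical neuron markers, also had the lowest Ldha share, and the part of those cells was not tested. Of 12 isoenzyme shares computed, 3 separated the genotypes, where 23.4% of all single genes did so in CPM. Aldoa made up 49.4% and 49.3% of aldolase A and C counts in the WT libraries, against 44.2% in KO 5 and 46.4% in KO 6, which is 4.07 points lower in KO. Pfkfb3 made up 74.1% and 74.0% of the Pfkfb3 and Pfkfb4 counts in WT and 74.8% and 75.7% in KO, a difference within the counting intervals. The other 9 shares overlapped. For phosphofructokinase the shares again sorted by table: Pfkp made up 51.0% and 54.5% in WT 1 and KO 6 and 44.7% and 43.6% in WT 4 and KO 5.

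**Figure D3:**
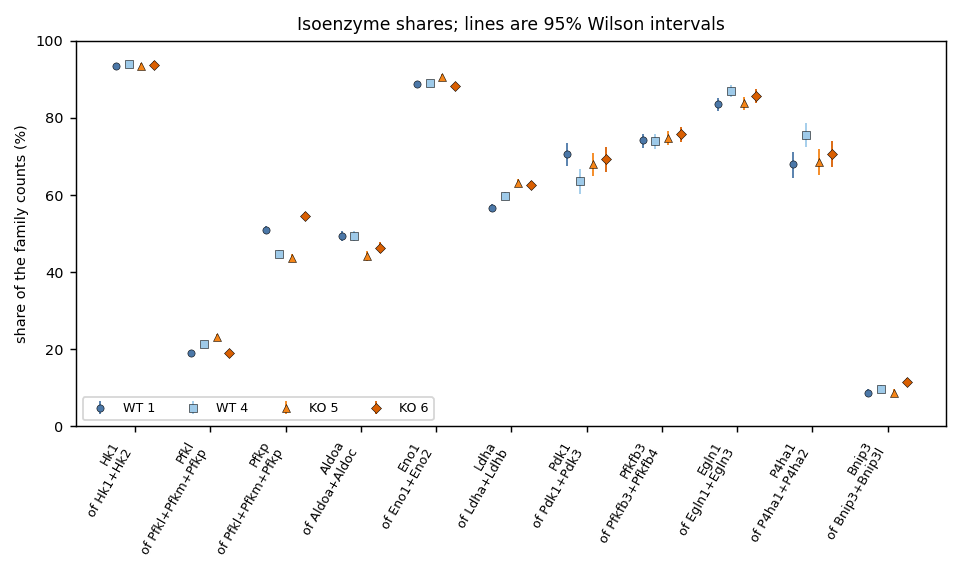
Share of a gene in the counts of its family (percent, axis from 0 to 100) in each library, with 95% Wilson intervals as vertical lines. Both KO points of Ldha (63.1% and 62.7%) sit above the WT points (56.7% and 59.7%), those of Aldoa sit below, and Pfkp splits WT 1 and KO 6 from WT 4 and KO 5.

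The remaining genes of pyruvate fate showed no such order. Pdk1 and Pdk3, kinases that shut pyruvate dehydrogenase, stood at 0.02 (SE 0.12) and -0.08 (SE 0.18) as log2 fold changes. Slc16a3 was at 3.995 and 3.58 CPM in WT 1 and WT 4 and at 4.05 and 3.51 CPM in KO 5 and KO 6, with overlapping pairs and a log2 fold change of -0.002. The bifunctional enzymes that set fructose-2,6-bisphosphate, the activator of phosphofructokinase, had fold changes below 0.1 in size on the log2 scale. Pfkfb3 was at 89.2 and 89.6 CPM in WT and at 90.1 and 96.6 CPM in KO 5 and KO 6, and its log2 fold change was 0.06 (SE 0.10). Pfkfb4 was at 31.1 and 31.5 CPM in WT 1 and WT 4 and at 30.4 and 30.9 CPM in KO 5 and KO 6. The Pfkfb4 pairs were ordered KO below WT by a margin of under 0.2 CPM, with a log2 fold change of -0.03 (SE 0.11).

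Among the HIF machinery, 4 of 5 members were higher and 1 lower in KO. Arnt (chr3:95434388-95497240, plus strand), the constitutive partner of HIF-1α, was at 54.1 and 55.0 CPM in WT 1 and WT 4 and at 60.5 and 61.5 CPM in KO 5 and KO 6. The KO pair was higher and each pair was tight, with a log2 fold change of 0.16 (SE 0.10, 95% interval -0.075 to 0.40, unadjusted p = 0.149 in edgeR's quasi-likelihood test). Hif1a, the oxygen-regulated subunit, whose control is mainly at the protein level, was at 97.0 and 113 CPM in WT 1 and WT 4 and at 102 and 105 CPM in KO 5 and KO 6. Both KO libraries fell between the WT libraries. Vhl, the ubiquitin ligase subunit, and the hydroxylase Egln1 stood at 0.06 (SE 0.10) and 0.02 (SE 0.11) as log2 fold changes. Egln3, the hydroxylase that hypoxia induces most strongly, was at 16.1 and 13.1 CPM in WT 1 and WT 4 and at 17.7 and 13.6 CPM in KO 5 and KO 6. WT 1 and KO 5 were the higher libraries, and the genotypes overlapped.

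The hypoxia-inducible effectors gave 4 higher and 6 lower of 10 tested, and a median of -0.01 on the log2 scale. All 10 overlapped between genotypes. Mxi1, a Myc antagonist, had the smallest p of this group. It was at 54.7 and 60.9 CPM in WT 1 and WT 4 and at 57.3 and 48.5 CPM in KO 5 and KO 6, with a log2 fold change of -0.13 (SE 0.13). Bnip3l, a mitophagy receptor needed for clearing mitochondria from maturing red cells and the group's most abundant gene in CPM, was at 175 and 170 CPM in WT 1 and WT 4 and at 163 and 184 CPM in KO 5 and KO 6. Its relative Bnip3 was at 16.5 and 18.3 CPM in WT 1 and WT 4 and at 15.3 and 24.0 CPM in KO 5 and KO 6. Both genes were highest in KO 6 and lowest in KO 5. The erythroid markers ran the same way: 8 of 9 were in both tables, none was at 0, and their sum was 1469 CPM in KO 6, 767 in KO 5, 1066 in WT 1 and 1010 in WT 4. Their part in the values of Bnip3 and Bnip3l was not tested.

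Of the other effectors, Ddit4, an inhibitor of mTORC1, had a log2 fold change of -0.01 (SE 0.10), and the histone demethylase Kdm3a had 0.005 (SE 0.10). The collagen prolyl hydroxylases P4ha1 and P4ha2 were at -0.02 (SE 0.12) and 0.13 (SE 0.21), and the disulphide oxidase Ero1l at -0.02 (SE 0.12). Ankrd37 and Adm had the widest intervals of all members, from -0.80 to 0.75 and from -1.48 to 0.86. Adm was at 1.35 and 0.76 CPM in WT 1 and WT 4 and at 1.03 and 0.68 CPM in KO 5 and KO 6, so both genotypes had 1 high and 1 low library. Exons of Ankrd37 and Bnip3 overlap a gene on the other strand over 22.7% and 22.3% of their length. Whether reads were counted by strand is not stated, so reads over these shared stretches may not be told apart. Exons of Pkm and Pfkm overlap a gene on the same strand over 15.3% and 10.2% of their length.

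**Figure D4:**
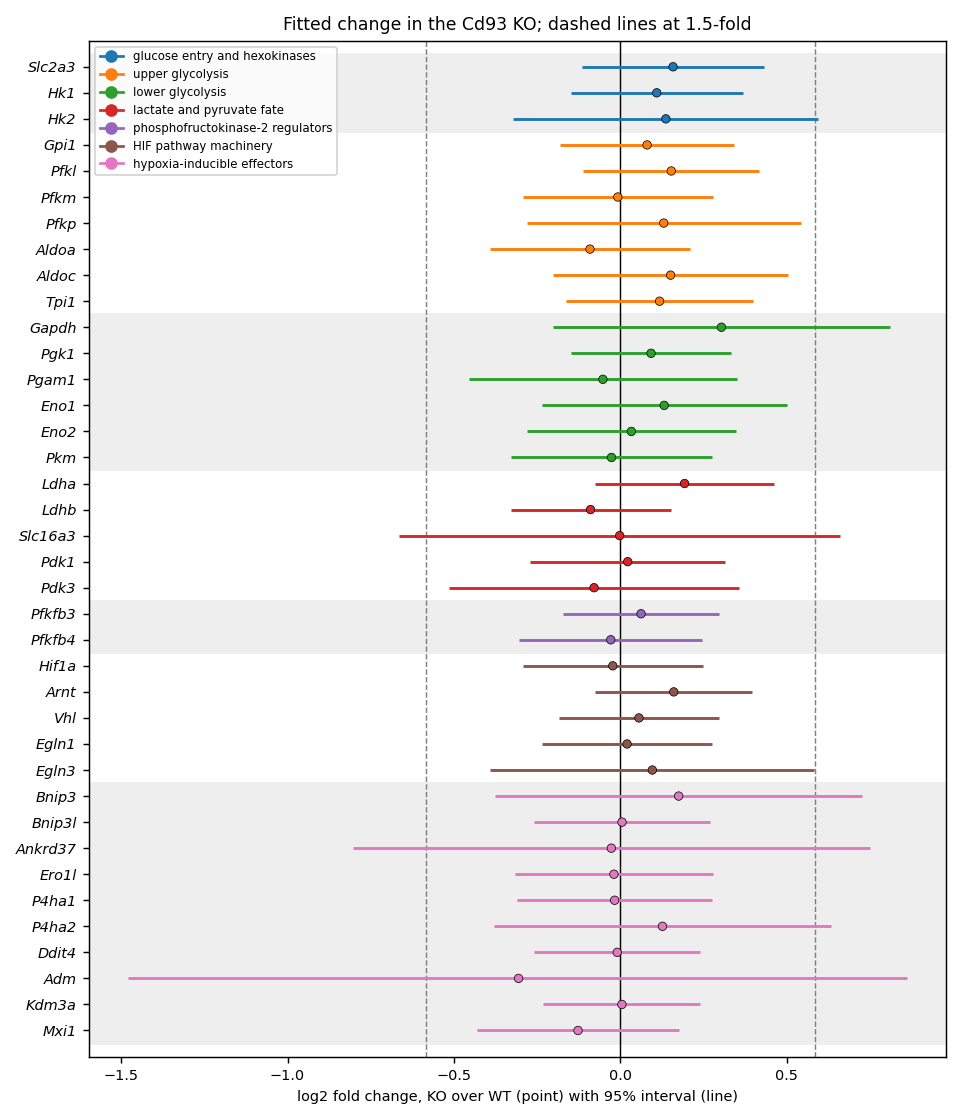
Fitted log2 fold change (KO over WT) of the 38 tested members from edgeR, as points with 95% intervals as lines, coloured by role group, with dashed lines at 1.5-fold. All intervals cross 0, and 31 of 38 lie between the dashed lines, with Adm the widest.

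The median absolute log2 fold change of the members was 0.08 between genotypes, against 0.12 between WT 1 and WT 4 and 0.15 between KO 6 and KO 5. Over all genes the same medians were 0.09, 0.18 and 0.19. The first compares means of 2 libraries and the others compare single libraries, so the first is smaller by construction. For 22 of the 38 members the change between genotypes was smaller than both within-genotype differences. The same construction favours this order, and no share over all genes is given for it here, so the count describes no property of the members. The change was larger than both within-genotype differences for 6 members, or 15.8%, near the 14.6% of all genes: Slc2a3, Pgk1, Ldha, Ldhb, Pfkfb4 and Arnt. Both KO libraries were above both WT libraries in CPM for 8 members, or 21.1%, where the share over all genes was 11.5%. They were below for 2 members, or 5.26%, where the share was 11.9%. In either direction the members gave 26.3% and all genes 23.4%. The 8 were Slc2a3, Hk1, Hk2, Pfkl, Pgk1, Ldha, Pfkfb3 and Arnt, and their log2 fold changes ran from 0.06 to 0.19.

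The 2 deposited tables, each with 1 KO and 1 WT library, allowed the comparison to be repeated without a shared library. Within table A (KO 6 over WT 1) and table B (KO 5 over WT 4), 14 members were higher in KO in both, against 22.3% of all genes, and 6 were lower in both, against 22.9%. The other 18 went opposite ways. The 14 members comprise 36.8% of those tested and are all enzymes or transporters of glycolysis, Pfkfb3 or Arnt. They include Gapdh, whose direction is uncertain because of its copies, with log2 ratios of 0.04 (table A) and 0.65 (table B). No hypoxia-inducible effector was higher in both tables. Over the 38 members the ratios of the tables had a Pearson r of -0.41 and a Spearman rho of -0.25, against 0.01 and -0.07 over all genes, as a description across genes that share libraries. Bnip3, for example, had log2 ratios of 0.54 (table A) and -0.25 (table B), while Egln3 had -0.25 and 0.43.

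**Figure D5:**
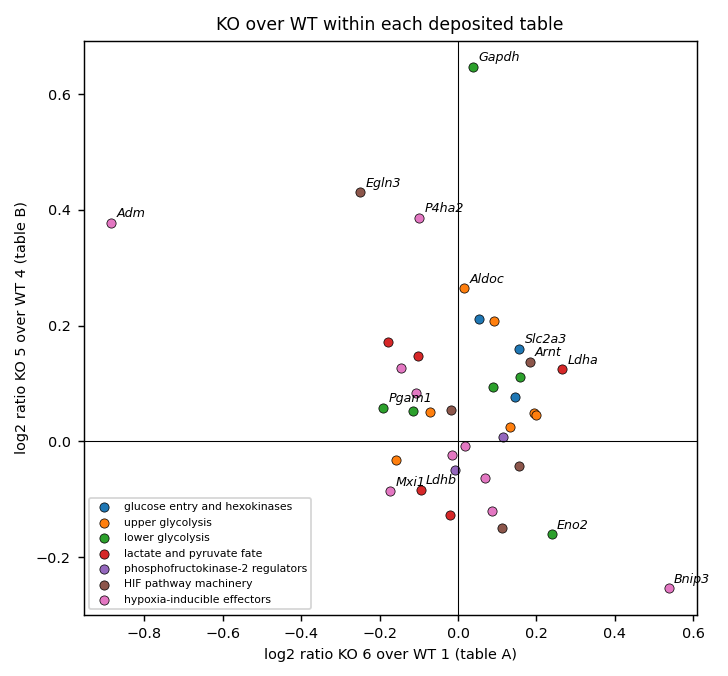
Log2 ratio of KO to WT in table A (KO 6 over WT 1, horizontal) and in table B (KO 5 over WT 4, vertical) for the 38 tested members, 1 point per gene, coloured by role group. The upper right part holds the 14 members higher in both tables, including Ldha and Arnt, and the lower left part the 6 lower in both.

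The deposited table separated more members than the genotype did. Both libraries of table A were above both of table B for 5 members, or 13.2%, against 23.0% of all genes. They were below for 12 members, or 31.6%, against 22.8% of all genes. The 12 include Aldoa, Aldoc, Tpi1, Pgam1, Eno1 and Pkm, and the 5 include Pfkp and Gapdh. In either direction this came to 44.7% of members and 45.8% of all genes. Whether a table corresponds to a sequencing run or a collection day is not given in the sources used here.

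In the authors' deposited tables, which compare 1 library with 1 library, an adjusted p under 0.05 was given to 14 of 39 members in table A, 9 higher and 5 lower, where 21.2% of listed genes had one. The authors' deposited table B gave it to 10 members, 9 higher and 1 lower, where the share was 12.9%. Ldha and Eno1 were higher in both, and Pkm was lower in table A and higher in table B. None of the members was marked significant in the authors' deposited tables, a mark held by 4.67% and 2.31% of listed genes.

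Of further genes of the pathways, 0 passed the test in each of 5 lists. Of 16 further glycolysis genes tested, 10 were higher and 6 lower. Those of smallest p were Gapdhs, the sperm-type paralog of Gapdh, with a log2 fold change of 0.36 (SE 0.20), and Slc2a1, the glucose transporter of brain endothelium and glia, with -0.25 (SE 0.16). Slc2a1 was at 66.1 and 49.8 CPM in WT 1 and WT 4 and at 52.5 and 44.7 CPM in KO 5 and KO 6, so it was highest in WT 1, the library with the high endothelial markers. Of 14 further lactate and pyruvate genes, 6 were higher and 8 lower, with Pdk4 at -0.44 (SE 0.39) and the pyruvate dehydrogenase phosphatase Pdp1 at -0.14 (SE 0.13). The pentose phosphate pathway, which branches off glucose-6-phosphate to make NADPH and ribose, had 5 higher and 3 lower of 8, with Rpe at -0.26 (SE 0.14) and Tkt at 0.13 (SE 0.12).

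Of 16 further HIF machinery genes, 6 were higher and 10 lower. The other HIF alpha subunits led this list, Hif3a with a log2 fold change of -0.69 (SE 0.40) and Epas1, the endothelial HIF-2α, with -0.42 (SE 0.25). Epas1 was at 30.7 CPM in WT 1 and at 17.6 to 18.9 CPM in the other 3 libraries, and Hif3a at 17.3 CPM against 7.14 to 8.14 CPM. Both were high in WT 1 alone, as the endothelial markers were, and their part in these values was not tested. Of 31 further hypoxia targets, 15 were higher and 16 lower, and 4 had an unadjusted p under 0.05, against 1.94% of all genes. Both KO libraries were below both WT libraries for 9 of the 31, against 11.9% of all genes, and above for 4, against 11.5%. The lowest log2 fold change was that of Lox, a collagen cross-linking enzyme named here after its values were seen, at -2.21 (SE 0.92). Lox was at 17.5 and 1.94 CPM in WT 1 and WT 4 and at 1.48 and 2.71 CPM in KO 5 and KO 6. It was thus high in WT 1 alone. The fibroblast markers were also highest in WT 1, and their part was not tested. Anxa2, a membrane-binding annexin of mesenchymal and endothelial cells, was at 43.0 and 25.8 CPM in WT 1 and WT 4 and at 16.2 and 18.6 CPM in KO 5 and KO 6. The KO pair was lower, with a log2 fold change of -0.98 (SE 0.25, unadjusted p = 0.0061 in edgeR's quasi-likelihood test), and the fibroblast and endothelial markers were also highest in WT 1. Ndufa4l2, a mitochondrial protein expressed in mural cells, was at 5.46 and 5.46 CPM in WT and at 3.43 and 3.20 CPM in KO 5 and KO 6, and its log2 fold change was -0.72 (SE 0.26). The pericyte and mural markers summed to 207 and 137 CPM in WT 1 and WT 4 and to 124 and 160 CPM in KO 5 and KO 6, with 7 of 7 highest in WT 1 and none at 0. For 2 of the 6 tested, Kcnj8 and Abcc9, both KO libraries were below both WT libraries, as for Ndufa4l2 and 11.9% of all genes. The other 4 tested markers overlapped between genotypes. The part of mural cells in the values of Ndufa4l2 was not tested.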

How the data were processed

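RNA-seq libraries of E16 cortex, 2 WT and 2 Cd93 KO, were analysed from the authors' 2 deposited tables of raw counts, 1 row for each Ensembl gene, per the file headers. The authors' deposited log2 fold changes and adjusted p-values compare 1 KO with 1 WT library by a tool not given in the sources used here. The submitters' processing notes name TopHat2 2.0.12, Bowtie2 2.2.3, HTSeq 0.6.0 and mm9. Gene positions in the tables are those of GRCm38, and 35 of 40 member rows have the start and end of GENCODE M21.

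Counts of genes in both tables were filtered with filterByExpr, scaled with TMM and tested in edgeR 4.0.16 by the quasi-likelihood method, with Benjamini-Hochberg adjustment over 16371 genes and a threshold of 0.05. All 4 libraries entered, with genotype as the only term. CPM values are TMM-scaled, and log2 ratios within tables used a prior count of 2. DESeq2 1.42.0 and limma 3.58.1 (voom) in R 4.3.3 were alternatives. The script was tested on simulated data. Libraries of a genotype differed beyond sampling noise (chi-square per degree of freedom over the members 17.2 in WT, 21.5 in KO). Near-identical copies were genes with at least 50% of their 25-base words in a member, and summing them was an alternative chosen after seeing the data.

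Members and lists were chosen with earlier results of these data known. Named were members whose genotypes did not overlap, the member of smallest p and the most abundant member of each role group, members called by any alternative, and the 2 genes of smallest p of each further list. Other members are given more briefly, and the Gapdh copies were singled out after their values were seen.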

Additional observations from a re-analysis of the deposited data

How the results depend on the processing

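No member passed the threshold in any of the 12 alternatives, which changed the scaling, the filter, the test, the table block, the genes entered, the copies or the libraries. Of the 38 members, 14 kept their sign in all of them and 24 did not. The number of genes called over the whole table, 2, became 8 with DESeq2 and 29 with the deposited table as a block, and ran from 5 to 312 when a library was left out (5 without KO 5, 8 without KO 6, 44 without WT 1, 312 without WT 4). The median log2 fold change of the members ran from 0.0196 to 0.078 when a library was left out (0.056 without WT 4, 0.078 without KO 6), from 0.03 with all. The genotypes share no replicate numbers, so no fit could pair libraries by number, and the table block is the only pairing that was run.

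Small fold changes turned with the setting. Slc16a3 became 0.00136 with DESeq2 size factors in edgeR, 0.0023 with no filter and 0.00137 with DESeq2, from -0.00. With library totals only, Bnip3l became -0.0033 and Kdm3a -0.0030. Gapdh became -0.31 when summed with its copies. The log2 fold changes below turned when 1 library was left out, and each range is over the 4 omissions. Without KO 5 the sign turned for Aldoc from -0.047 to 0.33. Without WT 1 or KO 5 the sign turned for Ankrd37 from -0.23 to 0.22, Egln1 from -0.065 to 0.11, Eno1 from -0.016 to 0.30 and Kdm3a from -0.037 to 0.055. Without WT 4 or KO 5 the sign turned for Egln3 from -0.11 to 0.28, Hif1a from -0.13 to 0.10, P4ha1 from -0.069 to 0.039 and Pdk1 from -0.038 to 0.091. Without KO 6 the sign turned for Aldoa from -0.22 to 0.033, Bnip3 from -0.18 to 0.47 and Pfkp from -0.091 to 0.33. Without WT 1 or KO 6 the sign turned for Ddit4 from -0.088 to 0.071, Eno2 from -0.10 to 0.19 and Slc16a3 from -0.11 to 0.10. Without WT 4 or KO 6 the sign turned for Bnip3l from -0.079 to 0.0899, Ero1l from -0.062 to 0.032, Pdk3 from -0.23 to 0.094, Pfkm from -0.12 to 0.10, Pgam1 from -0.29 to 0.16 and Pkm from -0.16 to 0.10. Without WT 1 the sign turned for Adm from -0.65 to 0.16, Epas1 from -0.75 to 0.0203, Hif3a from -1.18 to 0.0799 and Lox from -3.06 to 0.11. Without WT 4 the sign turned for P4ha2 from -0.077 to 0.37. Leaving out WT 4, edgeR's quasi-likelihood test, adjusted by Benjamini-Hochberg, called Anxa2 (log2 fold change -1.30, adjusted p = 1.1e-04), Hif3a (-1.18, adjusted p = 0.0079) and Lox (-3.06, adjusted p = 9.0e-08), comparing WT 1 alone with both KO libraries, and the lone WT library is then assumed to vary like the KO libraries. Under the other alternatives the adjusted p was 0.0547 to 0.9999 for Anxa2, 0.9995 or more for Hif3a and 0.486 or more for Lox. The depth of 16318317 to 17586157 counts limits Car9, Adm and Ankrd37 most, and the replication of 2 limits all members. The causes of these shifts were not tested.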
